A study of Homo sapiens with 12 samples.

Results

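RNA from HEK293T cells depleted of MLLT10/AF10 was set against RNA from HEK293T cells depleted of DOT1L, each hybridized to 1 dual-color array of the same slide. The pair makes up 2 of the 12 arrays of the study and 2 of its 6 arrays of HEK293T RNA, and was chosen by its titles, si MLLT10 + 9hr Wnt and si DOT1L + 9hr Wnt. HEK293T is a human embryonic kidney line in which the Wnt pathway is intact and can be switched on from outside. Both cultures were transfected with a predesigned siRNA pool at 15 nM for 72 h and then held in Wnt3A conditioned medium for 9 h, so that siRNA and Wnt3A treatment were common to both and only the target of the pool differed. One label field spells the second pool si-cDOT1L. The other 4 HEK293T arrays, set beside the pair as levels only, held RNA of si-control cells in control medium (CM), of si-control cells in Wnt3A, and of si-BRG1 and si-p300 cells in Wnt3A. Every array carried Cy3-labelled sample RNA together with Cy5-labelled human reference RNA, and a level is given below as log2 of sample over reference. The change of a feature (an array spot) is its level on the si-MLLT10 array minus its level on the si-DOT1L array, without any si-control array. A positive change therefore means more RNA in MLLT10/AF10-depleted than in DOT1L-depleted cells and does not tell which of the 2 cultures moved. With 1 sample per group the differences cannot be tested against replicates, and the text prints no p-values. The error beside a value is the program error, which the scanner software derives for each ratio and which was combined over both arrays. It does not hold the spread between cultures. In RNA from whole cultures, fewer cells of a kind and less RNA per cell cannot be told apart.

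DOT1L is the enzyme that methylates histone H3 at the site named H3K79 along transcribed genes, and AF10, the product of MLLT10, binds DOT1L and helps to bring it to chromatin. Both are known from leukemia, where fusions of MLL with AF10 or with related partners misplace DOT1L. In the study, both proteins were examined as partners of TCF4 and β-catenin, the pair that turns on Wnt target genes. Since AF10 and DOT1L work in 1 complex, the contrast asks where the cultures depleted of one or the other differ.

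The siRNA targets separated as the labels say. MLLT10 stood at −1.35 on the si-MLLT10 array and at 0.51 on the si-DOT1L array at its brighter probe, a change of −1.87 ± 0.32 (program error). On the other 4 arrays this probe lay at 0.72 (si-control CM), 0.40 (si-control Wnt3A), 0.43 (si-BRG1) and 0.38 (si-p300), so that the si-MLLT10 array alone was low. A dimmer MLLT10 probe stood at 0.16 and 1.65 (change −1.49 ± 0.44), but its signal did not reach the limit for a tested feature. For DOT1L, the brightest probe stood at −0.09 on the si-MLLT10 array and at −2.07 on the si-DOT1L array, a change of 1.98 ± 0.35. The next probe stood at 0.24 and −1.10 (change 1.34 ± 0.31). Both probes were lowest on the si-DOT1L array among all 6. The last DOT1L probe stood at 0.13 and −0.03, a change of 0.16 ± 0.30, and did not separate the arrays. Each target was thus left near its level on the other arrays by the siRNA against its partner.

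Of 43376 features that are not control spots, 28396 had a signal above 2-fold the local background in either channel on both arrays and no outlier mark, and these were tested. Among them, 559 (1.97%) were more than 1.5-fold higher in si-MLLT10 and 478 (1.68%) more than 1.5-fold higher in si-DOT1L cells, the threshold the study used for these cells. These 1037 features (3.65%) are 957 of 26375 probes and belong to 574 of 13514 genes with a symbol. The median change of all tested features was 0.01 and the SD 0.27, and the levels of both arrays correlated across features with r = 0.987, a description over features that share 1 slide and 1 reference RNA. Most features past the threshold were dim, since 41.7% of them, against 94.6% of all tested, were well above background in both channels on both arrays. Where this was required, 216 of 26870 features (0.804%) were higher in si-MLLT10 and 216 (0.804%) higher in si-DOT1L. Of these, 91 and 107 had a change of more than 2 program errors. Within 0.05 of the 2-fold signal limit, 12.4% of the 291 features just inside and 11.1% of the 378 features just outside were past 1.5-fold.

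**Figure D1:**
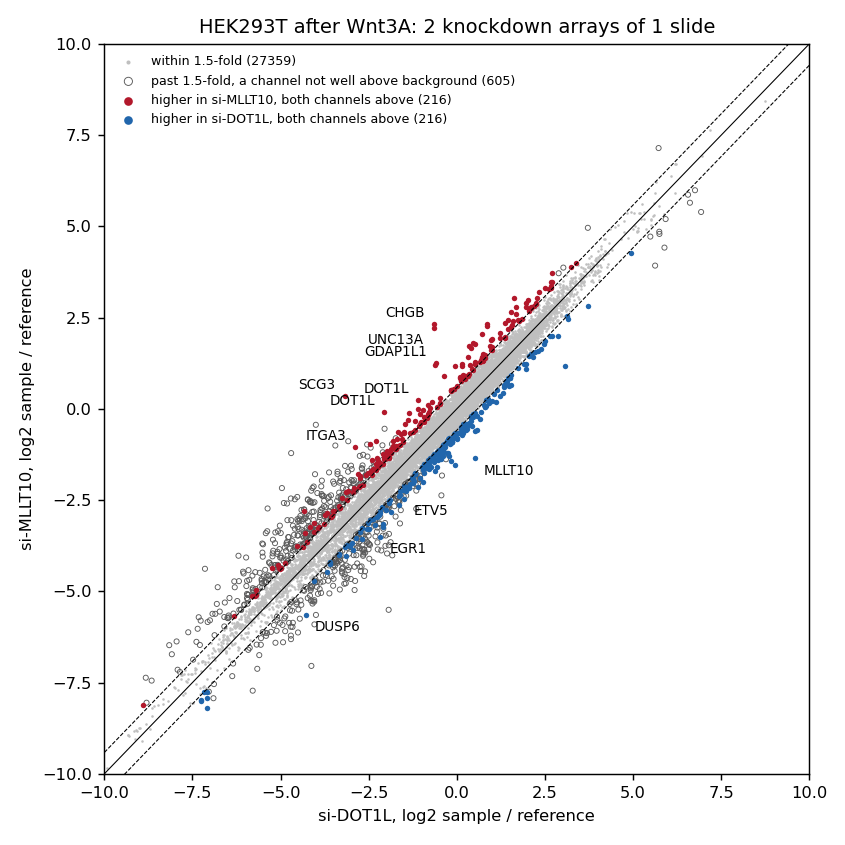
Level of each tested feature on the si-DOT1L array (x axis) and on the si-MLLT10 array (y axis), both as log2 sample over reference, for 28396 features. Red and blue points are the 216 and 216 features past 1.5-fold (dashed lines) with both channels well above background, open circles are features past 1.5-fold that were not, and the solid line marks equal levels; SCG3, CHGB and UNC13A lie farthest above the lines among the red points, while EGR1, DUSP6 and MLLT10 lie below them.

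The reference channel gives a measure of what the pair of hybridizations adds, because the same RNA was in it on both arrays. After scaling each channel to its 75th percentile, the reference channel differed by more than 1.5-fold at 69 of the 26870 features with both channels well above background (0.257%), and the sample channel at 513 (1.91%). The SD of the difference was 0.104 in the reference channel and 0.220 in the sample channel. The share of signals well above background in the sample channel was 71.1% on the si-MLLT10 and 72.8% on the si-DOT1L array. Of the 8 markers fixed for HEK293T cells, 7 are on the array, and all 7 were above background on both, with NEFM, a neurofilament subunit that this line is known to make, at processed signals of 54541 and 43481. The colorectal markers CDH17 and CEACAM5 and the leukocyte marker PTPRC were not above background on either array, and the summed signals of the 7 colorectal markers were 1271 and 1238 against 148956 and 151419 for those of HEK293T. Among the blood markers, HBG1 had signals of 8107 and 7339, and the 3 fibroblast markers on the array summed to 266 and 277.

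**Figure D2:**
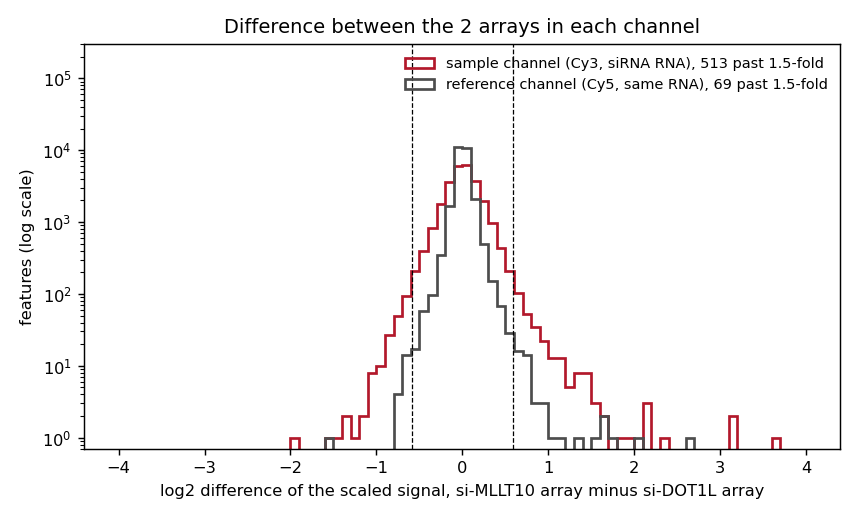
Difference of the scaled signal between the si-MLLT10 and the si-DOT1L array (x axis, log2) at 26870 features with both channels well above background, with the number of features per bin on a log scale (y axis). The sample channel (red), which holds the RNA of the 2 knockdowns, was past 1.5-fold (dashed lines) at 513 features and the reference channel (grey), which holds the same RNA on both arrays, at 69.

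Several of the genes with large changes toward MLLT10/AF10-depleted cells encode cargo or release machinery of secretory granules, which neurons and endocrine cells use to store and release peptides. They are described first, beside HPN, LUZP2, SOAT2, GDAP1L1 and ITGA3, which had changes of like size and belong to no such group. SCG3, a granin that sorts other granins into granules, stood at 0.36 on the si-MLLT10 array and at −3.18 on the si-DOT1L array. Its levels on the other 4 arrays were −2.62 (si-control CM), −3.01 (si-control Wnt3A), −1.89 (si-BRG1) and −2.53 (si-p300). Only the si-MLLT10 array was high, and the change was 3.54 ± 0.42, or 11.6-fold. A further SCG3 probe stood at 1.19 against −0.62, a change of 1.81 ± 0.34, in the same direction. CHGB, which encodes the granin chromogranin B, stood at 2.32 on the si-MLLT10 and −0.64 on the si-DOT1L array, while the other 4 arrays ran from −0.85 to 0.77. Its change was 2.96 ± 0.37, or 7.78-fold. CHGA, which encodes chromogranin A, stood at 1.78 and 0.51 with the others between 0.03 and 0.58 (change 1.27 ± 0.34). PCSK1, the convertase that cleaves prohormones inside the granule, stood at −3.02 and −4.37 (change 1.34 ± 0.58) and was not well above background in si-DOT1L cells.

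UNC13A, which primes vesicles for fusion, stood at 2.23 on the si-MLLT10 array and at −0.64 on the si-DOT1L array, a change of 2.87 ± 0.38. The si-p300 array was next, at 1.63, and si-BRG1 was lowest, at −1.55, so this gene varied among the other arrays as well. STXBP5L, which encodes a tomosyn that binds the fusion machinery, was higher in si-MLLT10 at both of its probes, with 2.66 against 1.52 and 1.47 against 0.81. RAB3C, a small GTPase of secretory vesicles, stood at 3.72 against 2.70 (change 1.02 ± 0.52). Among ion channels, CACNA1B, the pore of the N-type calcium channel that triggers release, stood at 1.81 against 0.46 at 1 probe (change 1.34 ± 0.36). A different CACNA1B probe stood at 0.36 against 0.67 (change −0.31 ± 0.31), so the probes of this gene do not move together. KCNB2, a delayed rectifier potassium channel, stood the other way, at 5.40 against 6.93 (change −1.54 ± 0.92), where the reference signal was very low against the sample signal.

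Counted over whole lists, which were written after values of these arrays were seen and are therefore descriptions, 7 of 15 probes of granins and prohormone processing were past 1.5-fold higher in si-MLLT10 and 0 lower, with a median change of 0.11. For the vesicle release machinery the numbers were 8 of 37 probes higher and 0 lower (median 0.15), and for neuronal voltage-gated channels 3 of 25 higher and 1 lower (median 0.11). Over all 26375 probes, 1.99% were higher and 1.64% lower, with a median of 0.01. Where the sample channel was well above background on both arrays, 4 of 11 granin, 8 of 35 release and 3 of 25 channel probes were higher. Lower were 0, 0 and 1, and of all 25021 such probes 212 were higher and 205 lower. The medians show that the bulk of each list lay near the rest of the array. SYT1, the calcium sensor of release, for instance had a change of 0.29 ± 0.37 and VAMP2, a vesicle SNARE, one of −0.32 ± 0.32. Of the 18 probes higher in si-MLLT10 in the 3 lists, 16 were highest on the si-MLLT10 array among all 6 and 5 were lowest on the si-DOT1L array. Over all features with good signal these shares were 13.4% and 9.58%, and the places of the 18 are partly set by their choice. After normexp background correction and loess, 12 of the 18 stayed past the threshold.

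**Figure D3:**
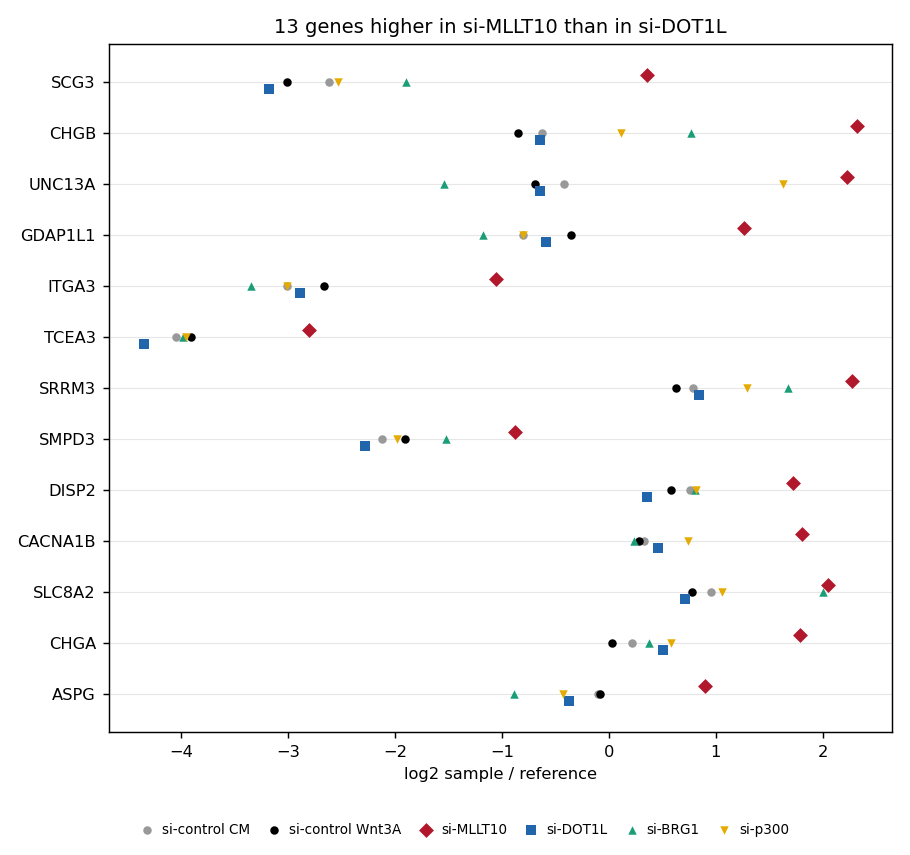
Levels (x axis, log2 sample over reference) of 13 of the 14 genes chosen as higher in si-MLLT10 (y axis), with 1 point for each of the 6 HEK293T arrays. The red diamond (si-MLLT10) lies to the right of all other points for all 13 genes shown, by a small margin for SLC8A2, where si-BRG1 is close, while the blue square (si-DOT1L) lies among or near the other arrays. The genes were chosen for a si-MLLT10 level above that of si-DOT1L.

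The named genes were the 14 with the largest change in each direction whose channels were all well above background and whose sample channel alone was past 1.5-fold the same way. All 14 that were higher in si-MLLT10 had their highest level of all 6 arrays on the si-MLLT10 array, and 5 had their lowest on the si-DOT1L array. Over all features with good signal these shares were 13.4% and 9.58%. Genes chosen for the largest change between the pair take such places more often by that choice alone. Beside those above, they included GDAP1L1, a relative of the mitochondrial protein GDAP1 (1.26 against −0.58, change 1.84 ± 0.32), and ITGA3, an integrin subunit of a laminin receptor (−1.05 against −2.89, change 1.84 ± 0.41). TCEA3, an elongation factor of the TFIIS family, stood at −2.81 against −4.34 (change 1.54 ± 0.57), but its other probe with good signal had a change of 0.11 ± 0.56. SRRM3, a regulator of neuronal microexon splicing, stood at 2.27 against 0.85 (change 1.43 ± 0.38), with 0.43 ± 0.31 at a further probe. Further members, SMPD3 (a neutral sphingomyelinase), DISP2 (of the Dispatched family), SLC8A2 (a sodium and calcium exchanger) and ASPG (an asparaginase), had changes of 1.40, 1.37, 1.34 and 1.27 with program errors between 0.32 and 0.37.

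For 52 probes the sample channel was well above background on the si-MLLT10 array and not on the si-DOT1L array, and for these only a bound can be given, the brighter signal over the lowest signal that counts as well above background on the dimmer array, or over the dim signal itself where that is higher. HPN, a serine protease of the cell surface, was at least 10.7-fold higher in si-MLLT10, with levels of −1.21 and −4.70, and its other 4 arrays lay between −4.77 and −4.11. LUZP2, a leucine zipper protein, was at least 5.36-fold higher. For SOAT2, which esterifies cholesterol, and IGSF11, an immunoglobulin superfamily adhesion protein, the ratios gave a smaller fold than the sample channel, so no bound is printed, and the changes of the ratio were 2.79 ± 0.59 and 1.51 ± 0.42. For 111 probes the reverse held. SCUBE2, a secreted protein that helps to release Hedgehog, was at least 3.85-fold higher in si-DOT1L, with levels of −5.51 (si-MLLT10) and −1.93 (si-DOT1L) and the other arrays between −4.95 and −4.57, so that here si-DOT1L was the array that stood apart. CD48, a surface protein of leukocytes, was at least 2.09-fold higher in si-DOT1L and ZNF43, a zinc finger protein, at least 1.81-fold, while SPMIP6, a protein of sperm microtubules, had a change of the ratio of −0.93 ± 0.44.

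Many neuronal secretory genes are known to carry the RE1 element, to which the repressor REST binds. REST itself was lower in si-MLLT10 at both of its probes, with levels of −0.80 against −0.00 (change −0.79 ± 0.30) and 0.45 against 0.84 (change −0.39 ± 0.33), and the si-MLLT10 array was the lowest of all 6 at both. At the first probe the si-DOT1L array was also the highest of all 6, and the remaining arrays lay between −0.58 and −0.12. With the sample channel alone the changes were −0.81 and −0.17. Among 30 probes of REST and its corepressors, REST was the only gene past the threshold, and RCOR1, the corepressor CoREST, had a change of −0.40 ± 0.31. The RE1 consensus, a degenerate motif with 14 specified positions, was searched on both strands of RefSeq promoters (GRCh38.p14, from 250 bases before to 50 after the start) with up to 1 mismatch, which 1.16% of all 35116 promoters hold. Of the 14 genes higher in si-MLLT10, 8 had a promoter entry and 1 of these, SLC8A2, a match, and of the 14 higher in si-DOT1L, 10 had an entry and 0 a match. Over the granin, release and channel lists, 3 of 68 genes with an entry had a match, SYN1, STXBP5L and VGF, or 3 of 108 promoters as the 1.16% counts them. Those of SLC8A2 and STXBP5L are shown because both genes were past the threshold, and that of SYN1, which encodes a synaptic vesicle protein, because it has 0 mismatches. Capitals mark the RE1 match. They come from chr19:47472065-47472143 (minus strand, 1 mismatch, motif in reverse orientation), chr3:120908202-120908230 (plus strand, 1 mismatch, after the start) and chrX:47620014-47620107 (minus strand).
SLC8A2: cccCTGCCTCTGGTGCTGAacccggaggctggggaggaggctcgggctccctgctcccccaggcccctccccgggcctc
STXBP5L: cctgactgctcggTTAGGACCTCGGAGAG
SYN1: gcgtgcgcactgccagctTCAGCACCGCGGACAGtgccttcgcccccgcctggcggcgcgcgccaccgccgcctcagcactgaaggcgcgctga
SLC8A2 stood at 2.05 on the si-MLLT10 and 0.71 on the si-DOT1L array. SYN1, with the best match, stood at 1.33 and 1.12, a change of 0.21 ± 0.33 that was within its program error. UNC13A, SCG3 and CHGA had no match in this window, which says only that this form of the motif is not there. The matches depend on the form searched, since a first search with fixed letters and up to 3 mismatches also matched UNC13A and, on the side of the genes higher in si-DOT1L, PRR5L, but not STXBP5L.

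On the other side, the genes that stood higher in DOT1L-depleted cells included the output and feedback genes of the ERK pathway, the kinase cascade that carries growth factor signals to the nucleus. EGR1, an immediate early transcription factor, stood at −3.51 on the si-MLLT10 array and at −2.17 on the si-DOT1L array, a change of −1.34 ± 0.48. Its level was −4.63 in si-control CM and −1.89 in si-control Wnt3A cells, with si-BRG1 at −3.97 and si-p300 at −3.13. The si-DOT1L array thus lay near the si-control Wnt3A array and the si-MLLT10 array between it and control medium. DUSP6, the phosphatase that ERK induces against itself, stood at −5.65 and −4.29 (change −1.35 ± 0.73), beside −5.58 in si-control CM and −4.53 in si-control Wnt3A. ETV5, an ETS factor induced by ERK, stood at −2.46 and −1.49 at 1 probe (change −0.97 ± 0.40). Its other probe was not well above background in si-MLLT10 cells and had a change of −1.93 ± 0.39. That change was −1.63 with the sample channel alone and −0.67 after normexp background correction and loess. ETV4, a relative of ETV5, stood at −0.95 against −0.20 and at −1.06 against −0.35 at its 2 probes (changes −0.75 ± 0.30 and −0.71 ± 0.31).

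Of 36 probes of ERK feedback and output genes, a list again written after values were seen, 11 of 9 genes were past 1.5-fold higher in si-DOT1L and 0 higher in si-MLLT10, beside 1.64% and 1.99% of all probes. Where the sample channel was well above background on both arrays, 9 of 32 were higher in si-DOT1L, beside 205 of 25021 of all probes. The median change was −0.37, and 83.3% of the probes lay below 0, against 46.1% of all probes with a symbol. The others past the threshold were CCND1, which encodes cyclin D1 (−0.58 against 0.25), EGR2 (0.23 against 0.99), EGR3 (−2.01 against −1.39), the phosphatase gene DUSP5 (−2.16 against −1.45) and ETV1 (−2.58 against −1.94). The feedback inhibitors SPRY2 and SPRED1 had changes of −0.51 ± 0.29 and −0.53 ± 0.31, under the threshold, while FOS, the classical early gene, had one of −0.23 ± 0.50 and MYC one of −0.19 ± 0.30. This count depended on the processing, since 4 of the 11 probes (EGR1, DUSP6, CCND1 and 1 of ETV5) stayed past the threshold after normexp background correction and loess, with a median of −0.19 over the list and ETV1 turned to 0.09. All 11 probes were more than 1.5-fold higher in si-control Wnt3A than in si-control CM cells, as were 4% of all tested features. Such a difference, which is between arrays of different slides, was found on both sides, at 113 (23.6%) of the 478 features higher in si-DOT1L and 130 of the 559 higher in si-MLLT10. With both channels well above background, it was found at 26 of 216 features higher in si-DOT1L and 20 of 216 higher in si-MLLT10. It therefore does not mark the si-DOT1L direction. On the si-MLLT10 array all 11 probes of the ERK list lay below si-control Wnt3A, by a median of −0.74, whereas the si-DOT1L array lay below it at 3 and had a median difference of 0.20, with 7 probes at their highest of all 6 arrays. The si-MLLT10 array was lowest of all 6 at 0 of the 11. A level below si-control Wnt3A was not particular to it. The si-p300 array also lay below at all 11, as for DUSP6 (−5.80 against −4.53). The si-BRG1 array lay below at most of them, but not at EGR2 (2.02 against 1.11). The 11 were kept for a si-MLLT10 level below that of si-DOT1L, so these places are partly set by that choice. Under the threshold, other CCND1 probes stood above si-control Wnt3A in si-MLLT10 (−1.36 against −1.51 and −1.05 against −1.54). SPRY2 stood below it (−0.65 against −0.19). These differences to si-control Wnt3A cross slides, since that array lay on a slide of its own among the HEK293T arrays. Among 46 probes of the cascade itself and its receptors 0 were past the threshold in either direction, with a median of 0.00. In a list of this size that count is near the share of all probes (1.99% higher and 1.64% lower) and says nothing particular about its members. The GTPase NRAS had a change of 0.40 ± 0.29 at its highest probe.

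**Figure D4:**
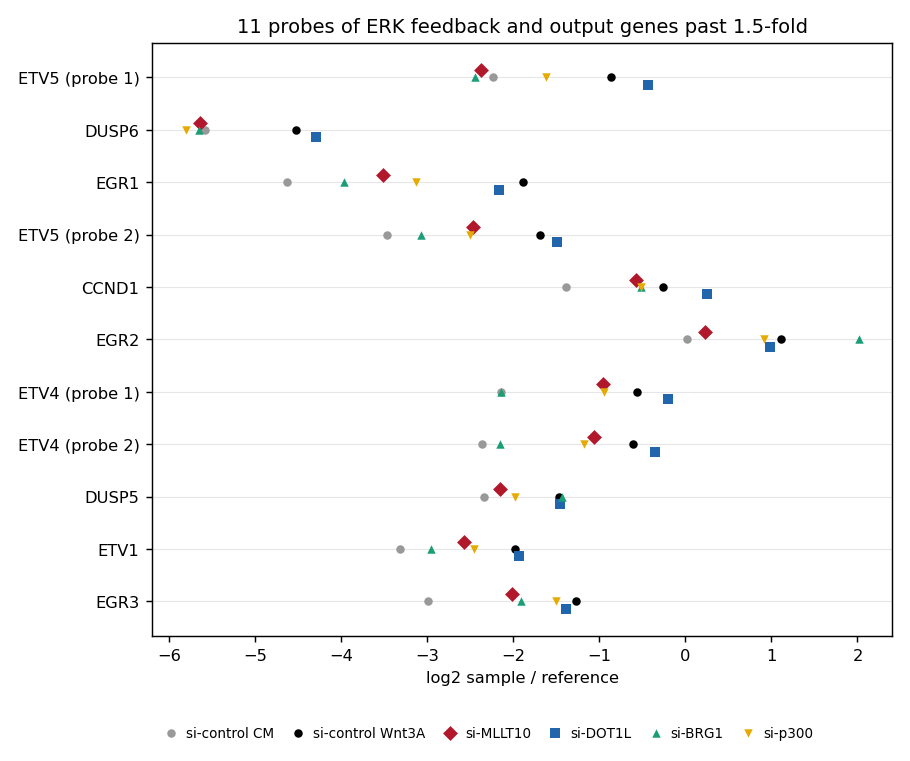
Levels (x axis, log2 sample over reference) of the 11 probes of ERK feedback and output genes past 1.5-fold (y axis), with 1 point for each of the 6 HEK293T arrays. The blue square (si-DOT1L) lies close to the black circle (si-control Wnt3A) for most probes, and the red diamond (si-MLLT10) lies to the left of both for all 11. The si-p300 point also lies to the left of the black circle for all 11. The probes shown were chosen for a si-MLLT10 level below that of si-DOT1L.

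ERK reaches early genes such as EGR1 partly through serum response factor, which binds the CArG box. This motif was searched on both strands of the same promoters, of which 1.29% hold it. Of the 26 genes of the ERK feedback and output list, 17 had a promoter entry and 2 of these, EGR1 and EGR2, a CArG box. This is 2 of 34 promoters as the 1.29% counts them. Both genes were past the threshold, and their stretches before the start are shown with each box in capitals. They come from chr5:138465314-138465465 (plus strand) and chr10:62816368-62816497 (minus strand).
EGR1: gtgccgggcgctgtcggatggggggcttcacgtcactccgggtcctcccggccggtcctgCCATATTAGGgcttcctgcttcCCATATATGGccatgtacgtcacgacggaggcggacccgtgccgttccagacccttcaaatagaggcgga
EGR2: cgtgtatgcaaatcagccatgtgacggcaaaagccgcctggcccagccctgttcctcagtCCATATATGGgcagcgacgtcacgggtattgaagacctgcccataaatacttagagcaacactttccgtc
EGR1 held 2 boxes and EGR2 held 1, in 1 of its 3 listed promoters. DUSP6 held 0 in its listed promoter, and among the 14 named genes higher in si-DOT1L only GBP1 held a box beside EGR1.

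The named genes higher in si-DOT1L also held genes outside the ERK list. After normexp background correction and loess, only 4 of the 14 (EGR1, DUSP6, SLC30A7 and PHLDA2) stayed past the threshold, whereas all 14 higher in si-MLLT10 did. Of all 14, 12 had their highest level of the 6 arrays on the si-DOT1L array or, counted the other way, 5 had their lowest on the si-MLLT10 array. Over all features with good signal these shares were 7.54% and 13.2%, and the places of the 14 are partly set by their choice. PRR5L, a partner of the mTORC2 kinase complex, stood at −1.42 on the si-MLLT10 and −0.16 on the si-DOT1L array (change −1.25 ± 0.38), and FLI1, an ETS factor, at −3.23 and −2.08 (change −1.15 ± 0.46). BAAT, which conjugates bile acids, stood at −2.15 and −1.09, with the other 4 arrays between −2.66 and −2.15, so only the si-DOT1L array was high. LIPG, which encodes endothelial lipase, stood at −1.59 and −0.57 (change −1.02 ± 0.37), and si-BRG1 was far lower at −3.60. PDLIM5, a scaffold of the actin cytoskeleton, had a change of −1.07 ± 0.36 at 1 probe and of −0.05, 0.00 and −0.01 at its other 3, and GBP1, an interferon-induced GTPase, had −1.03 ± 0.46 at 1 and 0.05 ± 0.57 at a dimmer one. COL6A1, a collagen VI chain, had −0.87 ± 0.38 and −0.00 ± 0.36. Such probes of 1 gene may see different transcripts, and their difference was not tested. SLC30A7 (a zinc transporter), CATSPER3 (a sperm calcium channel subunit), CGA (the common subunit of glycoprotein hormones) and PHLDA2 (an imprinted growth regulator) had changes between −0.95 and −0.88.

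Where several probes measured a gene, agreement between them is a check within the same RNA. Of 4211 genes with more than 1 probe well above background in both channels, 95 had a probe past 1.5-fold, 13 had 2 or more past it in the same direction, and 0 had probes past it in both directions. Beside DOT1L, the genes higher in si-MLLT10 by this count were SCG3, STXBP5L, NMNAT2, STMN3 and TMC8. NMNAT2, an enzyme of NAD synthesis that keeps axons alive, stood at 3.04 against 1.63 and at 1.95 against 1.35. STMN3, a neuronal stathmin that loosens microtubules, was higher at all 3 of its probes by 0.71 to 0.79. Those higher in si-DOT1L included ETV4, CGA, PTN, TWF1, UHMK1 and TRAK2. PTN, the growth factor pleiotrophin, stood at −4.00 against −3.34 and at −3.56 against −2.69, and UHMK1, a kinase of splicing factors, at 0.07 against 0.82 and 0.62 against 1.47. The 240 probes with 5 or more usable spots had a median SD of the change between spots of 0.04.

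Among 51 probes of known Wnt target genes, 4 were past 1.5-fold higher in si-DOT1L (7.84%, beside 1.64% of all probes) and 1 higher in si-MLLT10. The median change was −0.11, and 62.7% of the probes lay below 0, against 46.1% of all probes with a symbol. With the sample channel alone 2 of the 4 stayed past the threshold, and after normexp correction and loess 1, CCND1. AXIN2, the negative regulator used as the model target in the study, stood at 0.19 on the si-MLLT10 and 0.24 on the si-DOT1L array, a change of −0.05 ± 0.29, between −0.62 in si-control CM and 0.46 in si-control Wnt3A. ZCCHC12, the other target followed in these cells, stood at 5.92 and 5.63 (change 0.29 ± 0.83) and at 5.15 and 5.74 on these control arrays. The antagonists NKD1 and DKK1 had changes of −0.03 ± 0.33 and −0.06 ± 0.49, and LEF1, a TCF family member, of −0.29 ± 0.32. CCND1, which also stands in the ERK list, was lower in si-MLLT10 at all 3 probes, with changes of −0.83 ± 0.30, −0.54 ± 0.32 and −0.51 ± 0.31. CD44, a surface receptor, stood at −7.83 against −7.19 (change −0.64 ± 1.07), far below the reference. Of the members past the threshold SMOC2 and CRIPTO were not above background in both sample channels, and ASCL2 had −0.63 ± 0.46.

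Lists were also taken from arrays outside the pair. Features are called Wnt3A-induced or lowered here where si-control Wnt3A was more than 1.5-fold above or below si-control CM. Those arrays lay on different slides with 1 sample each, so Wnt3A cannot be told apart from slide or culture. The 1137 tested features that were induced had a median change of −0.02, and the 686 that were lowered one of 0.05, beside 0.01 for all features. Of the induced features, 11.4% were past 1.5-fold higher in si-MLLT10 and 9.94% higher in si-DOT1L, beside 1.97% and 1.68% of all features, but only 58.3% of them were well above background in both channels. Among those 663, 20 (3.02%) were higher in si-MLLT10 and 26 (3.92%) in si-DOT1L, beside 0.804% each of all features. Among the 507 lowered features so measured, 18 were higher in si-MLLT10 and 7 in si-DOT1L. Features that depletion of β-catenin had lowered more than 2-fold in Ls174T colorectal cancer cells had a median change of −0.06 (223 features), and those it had raised 0.04 (646 features). The sign of the median of the Wnt3A-induced features depended on the processing, as it was 0.13 with the sample channel alone and 0.0764 after another background correction.

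Of 49 probes of the DOT1L complex and of elongation factors, 0 were past 1.5-fold in either direction, which is near the share of all probes (1.99% higher and 1.64% lower), with changes between −0.45 and 0.26 and a median of 0.02. The lowest was AFF4, a scaffold of the super elongation complex (−0.08 against 0.37, change −0.45 ± 0.29), and MLLT6, the closest relative of MLLT10, had −0.33 ± 0.29, −0.29 ± 0.29 and 0.09 ± 0.30 at its 3 probes. HOX genes and their cofactors, which MLL fusions with AF10 activate in leukemia, also had 0 of 42 probes past the threshold, with HOXB3 lowest (1.28 against 1.82, change −0.53 ± 0.38) and the cofactor MEIS2 highest (−1.21 against −1.64, change 0.43 ± 0.36). Other chromatin enzymes had 0 of 89, from SUV39H2 at −0.42 ± 0.53 to KDM5B at 0.41 ± 0.29. Replication and mitosis had 0 of 61, the replication-dependent histones 0 of 33, ribosome biogenesis 0 of 49 and the stress responses 0 of 38. In lists of this size, counts of 0 are near the share of all probes and say nothing particular about their members.

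The remaining lists had few members past the threshold. Over all probes, 1.99% were higher in si-MLLT10 and 1.64% higher in si-DOT1L. In lists of this size, counts of 1 or 2 therefore say nothing particular about their members. Immediate early genes had 5 of 43 probes higher in si-DOT1L, all 5 of them also in the ERK list, while KLF2 and JUN were highest with changes of 0.57 ± 0.29 and 0.40 ± 0.39. Genes of BMP and TGFβ signaling had 2 of 44 higher in si-DOT1L, the activin subunits INHBA (−2.23 against −1.52, change −0.71 ± 0.38) and INHBB (−0.65 against 0.03, change −0.68 ± 0.29), and 1 higher in si-MLLT10, the ligand BMP5 (change 0.66 ± 0.58). A further INHBB probe had −0.54 ± 0.29. Interferon-stimulated genes had 2 of 38 higher in si-DOT1L, IFIT2 with −0.71 ± 0.53 and MX2 with −0.66 ± 0.53 at 1 probe, and 1 higher in si-MLLT10, IRF9 with 0.64 ± 0.36. The other MX2 probe had 0.53 ± 0.78. Cholesterol synthesis and SREBP targets had 1 of 51 probes higher in si-MLLT10 and 0 lower. Of the other lists, among Wnt pathway components only SFRP2 was past the threshold, at a probe that was not above background in both samples, among hypoxia and glycolysis genes only SLC2A3, likewise dim, and among p53 targets only TNFRSF10A, likewise dim.

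**Figure D5:**
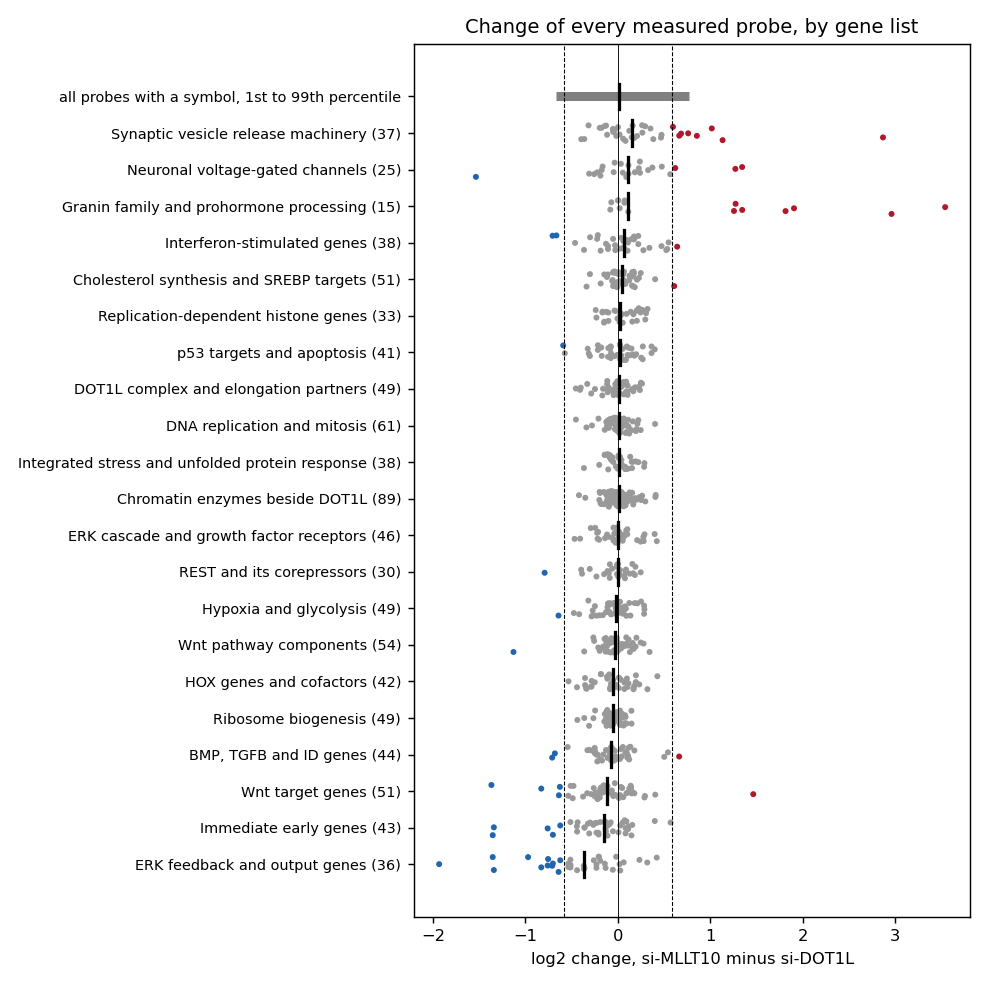
Change of every measured probe (x axis, log2, si-MLLT10 minus si-DOT1L) by gene list (y axis, number of probes in brackets), with red and blue points past 1.5-fold (dashed lines), black ticks at the median of each list, and a grey bar from −0.67 to 0.77 for the 1st to 99th percentile of all probes with a symbol. The ERK feedback and output list has the lowest median (−0.37), and the points farthest to the right lie in the granin and release lists.

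The other 4 HEK293T arrays were used to see which of the pair stood apart. Of 188 features higher in si-MLLT10 with good signal on all 6 arrays, 129 were highest of all on the si-MLLT10 array and 52 lowest of all on the si-DOT1L array. Of 189 features higher in si-DOT1L, 106 were lowest on the si-MLLT10 array and 63 highest on the si-DOT1L array. Over all 25576 features so measured, the si-MLLT10 array was highest at 13.4% and lowest at 13.2%, and the si-DOT1L array at 7.54% and 9.58%. A feature chosen for a high si-MLLT10 value against si-DOT1L is more often extreme by that choice alone, so the counts describe which array was extreme and nothing more. Of these arrays, si-control CM shared the slide of the pair, and the remaining 3 lay on 2 other slides.

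Depletion of MLLT10/AF10 was also measured in Ls174T cells against si-control, on arrays outside the pair. Across 26680 features measured in both, the change there and the change between the HEK293T arrays correlated with r = 0.05 (Spearman's rho = 0.12), and with r = 0.09 (rho = 0.13) across the 25298 with good signal, a description over features that share the reference RNA and the array design. Of these 25298, 392 were past 1.5-fold higher in Ls174T cells and 451 lower. Among them, the 192 features higher in si-DOT1L held 8 and 24, and the 166 higher in si-MLLT10 held 14 and 8. Without the demand for good signal, the 426 higher in si-DOT1L held 40 and 58, and the 489 higher in si-MLLT10 held 54 and 56. Of the 14 genes higher in si-MLLT10, 10 had a value in Ls174T cells, where 0 were past 1.5-fold higher and 2 were past it lower, SCG3 (−1.38 ± 0.93) and CHGB (−1.11 ± 0.66), both not well above background there. Of the 14 genes higher in si-DOT1L, all 14 had a value, and 1 was past 1.5-fold higher (DUSP6, 0.63 ± 0.37) and 2 were past it lower (PDLIM5, −0.98 ± 0.36, and GBP1, −1.57 ± 0.75, not well above background there). The background in Ls174T cells was 2.14% of features higher and 2.38% lower. MLLT10 itself was lower there, at −1.42 ± 0.33.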

How the data were processed

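The authors labelled total RNA of each culture with Cy3 and human reference RNA with Cy5 and hybridized them to Agilent 4x44K Whole Human Genome arrays. The intensities the authors deposited give 3 values for each channel of a spot: its median signal, the background around it, and a processed signal that Agilent Feature Extraction (10.5.1.1 in the file headers, 8.5.1.1 in the submitters' processing notes) had background-subtracted and dye-normalized. The deposited log10 ratios are Cy5 over Cy3, with the error of the program. From these, ratios were turned to sample over reference and to log2. Features were tested after removal of control spots and outlier marks where 1 or both channels had a median signal above 2-fold that background on each of the 2 arrays, and spots of 1 probe were averaged for genes. For the sample or reference channel alone, processed signals were scaled to the 75th percentile of each array, floored at the lowest signal well above background, and taken to log2.

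Gene symbols came from RefSeq accessions, of which 94.9% of 29084 features that carry one matched (GRCh38.p14 gene table). No gene coordinates were used other than those of promoter sequences. Named genes were the siRNA targets, the 14 largest changes per direction with good signal in all channels (1 probe a gene, the brightest), the 5 largest bounds per direction, up to 4 probes per list, AXIN2 and ZCCHC12. Some genes that these rules take are counted but not reported here by name. Genes given beside these, such as STXBP5L, SYN1, NMNAT2, STMN3, PTN and UHMK1, were chosen after their values were seen. The members and the 19 gene lists were chosen with earlier results of these data known, and 6 lists (granins, vesicle release, channels, REST, ERK output, ERK cascade) after values of this contrast were seen. Alternatives were another threshold, the sample channel alone, normexp background correction (offset 50) with loess in limma 3.58.1 (R 4.3.3), other signal filters, median centring, 1 value per probe and the deposited table of values. Requiring both channels well above background was added after the data were seen. The promoter motifs were also chosen then, and the RE1 search was run in 2 forms, first with fixed letters and up to 3 mismatches and then, as reported, with the degenerate consensus and up to 1. No test between conditions was made, since each has 1 sample, so that the number of arrays sets the precision. Tables were handled with Python 3.11.15, pandas 2.3.3 and numpy 2.4.6, and the steps were tested on simulated data.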

Additional observations from a re-analysis of the deposited data

How the results depend on the processing

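The number of features past 1.5-fold was 1037. It was 5582 with no signal filter, 446 with the sample channel well above background, 432 with both channels well above background, 203 with both channels above 2-fold the local background, 627 with the sample channel alone, 513 with the sample channel alone and both channels well above background, and 144 after normexp correction and loess (144 also with background outliers repaired). At a 2-fold threshold it was 310. The deposited table, median centring, 1 value per probe and keeping outlier marks left it within 1.5 times. The median of the Wnt3A-induced features was 0.0764 after normexp correction and 0.13 with the sample channel alone, against −0.02, so its sign is not fixed by these data. That of the Wnt3A-lowered features was 0.11 with the sample channel alone and 0.15 for features lowered more than 2-fold, and that of the features raised by β-catenin depletion 0.12 for those raised more than 3-fold. The correlation with the Ls174T change was 0.138 for features well above background on all 4 arrays and 0.0864 with the sample channel alone. The causes were not tested. For the 32 probes of siRNA targets and named genes, 96 values under 3 alternatives held 0 reversed directions, 73 moved by less than the program error, and 23 moved by more in the same direction. These counts are partly fixed in advance. The deposited table holds the same ratios and could not move. Named genes were chosen with the sample channel alone past 1.5-fold the same way, so that alternative could not reverse them. For these genes only normexp correction and loess could reverse a direction. After normexp correction and loess, all 14 named genes higher in si-MLLT10 but 4 of the 14 higher in si-DOT1L stayed past 1.5-fold, and 12 of 18 granin, release and channel probes and 4 of 11 ERK probes did, beside 14.9% and 10.9% of all probes called higher in si-MLLT10 and in si-DOT1L. BAAT moved from −1.06 to −0.03 there, ETV5 from −0.97 to −0.15 and PRR5L from −1.25 to −0.35. No paired analysis was possible because each group holds 1 sample.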
